A study of Mus musculus with 2 samples.

Results

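The genes of the proteasome were examined in granulocyte-monocyte progenitors (GMPs), a BM population that gives rise to neutrophils and monocytes. Members were all symbols with the stem Psma to Psmg followed by a digit and without a pseudogene suffix, which gave 50 of the 24421 symbols listed. They comprised 31 constitutive subunits of the 26S particle, 3 immunoproteasome subunits, 4 activators, 7 assembly chaperones and 1 inhibitor. The other 4 were Psma8 and Psmb11, which encode subunits specific to testis and thymic epithelium, Psme2b, an intronless copy of Psme2, and Psmc3ip, a recombination factor that shares the stem but is no subunit.

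The study examined how tumors redirect BM progenitors toward myeloid-derived suppressor cells, and compared GMPs with and without a tumor. Each group was 1 bulk RNA-seq library of total RNA. NTB-GMP came from non-tumor-bearing female mice, and 4T1-GMP from female mice with orthotopic mammary tumors of the 4T1 carcinoma line. The cells came straight from BM by flow cytometry, and the labels give both groups the background F1 semi-syngeneic (H-2b/d), whereas BALB/c and C57BL/6 are the strains of the study's methods. How many mice went into each library is not given in the sources used here. Nothing was replicated, so no test between the conditions was possible, and each interval below is a 95% interval on the reads of both libraries that covers counting error only.

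The library sizes by which the deposited values were divided were 10180365 (NTB-GMP) and 30016263 (4T1-GMP), a ratio of 2.95. Before rounding they were not whole numbers, so they may carry a scaling factor that the sources used here do not give, and the depth ratio and shares of a library are relative to them. Levels are in RPKM, which scale reads by gene length and library size, and pairs of values give NTB-GMP first and 4T1-GMP second. Rn45s, the precursor of ribosomal RNA, accounted for 17.0% of NTB-GMP and 6.98% of 4T1-GMP, and leaving it out shifts log2 ratios by about -0.16, and by other amounts for low genes. Of 10 GMP genes, all were detected in both libraries, and 6 were higher and 4 lower in 4T1-GMP. Their summed level was 10662.1 and 16331.5 RPKM. Among the higher were Ms4a3 at 479 and 1220 RPKM, Prtn3 at 1399 and 3311 RPKM and Mpo at 5162 and 5625 RPKM. Among the lower were Cd34 at 154 and 59.4 RPKM and Kit at 78.5 and 49.1 RPKM. All 10 mature neutrophil genes were higher in 4T1-GMP, with a summed level of 512 and 4050 RPKM. All 8 monocyte and dendritic genes with a mean above 1 RPKM were lower, with a sum over the 10 listed of 144 and 31.4 RPKM. No T cell gene reached that mean, and of the B cell genes only Cd79b did (14.7 and 12.4 RPKM). Of the erythroid genes, Klf1 and Gata1 did and were lower in 4T1-GMP, the globin genes Hba-a1 and Hbb-b1 were listed at 0 in both libraries, and Pax5 was at 0 in 4T1-GMP. In bulk RNA, a larger share of a cell type and more RNA per cell cannot be told apart.

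The 26S proteasome degrades proteins that carry ubiquitin chains. Its 20S core is a barrel of outer rings of alpha subunits, which form the gate, and inner rings of beta subunits, of which Psmb5, Psmb6 and Psmb7 carry the proteolytic sites. The 19S cap binds, deubiquitinates and unfolds the substrate, driven by a ring of ATPases. In immune cells and under interferon, Psmb8, Psmb9 and Psmb10 take the place of Psmb5, Psmb6 and Psmb7, and the PA28 activator of Psme1 and Psme2 can replace the cap. The immunoproteasome is known for making peptides for MHC class I. Nfe2l1 is the factor known to raise constitutive subunit genes together when proteasome activity is short, through antioxidant response elements in their promoters.

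Promoter sequences are shown for genes from both sides of the main comparison: Psmb5, Psmb6 and Psmb3 from the constitutive core, Psmb10 from the immunoproteasome and Psme2 from PA28. They are RefSeq sequences of GRCm38.p6, read in the direction of the gene, and end where annotated exons begin. Positions are chr14:54618023-54618245 on the minus strand for Psmb5, chr11:70525107-70525356 on the plus strand for Psmb6, chr11:97703184-97703398 on the plus strand for Psmb3, chr8:105938445-105938642 on the minus strand for Psmb10 and chr14:55591114-55591351 on the minus strand for Psme2. Capitals mark matches to the motifs described after the sequences, on either strand.

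Psmb5: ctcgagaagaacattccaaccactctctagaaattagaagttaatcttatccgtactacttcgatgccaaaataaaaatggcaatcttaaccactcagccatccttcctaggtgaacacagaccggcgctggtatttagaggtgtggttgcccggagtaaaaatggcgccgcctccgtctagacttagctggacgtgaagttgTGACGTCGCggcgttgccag

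Psmb6: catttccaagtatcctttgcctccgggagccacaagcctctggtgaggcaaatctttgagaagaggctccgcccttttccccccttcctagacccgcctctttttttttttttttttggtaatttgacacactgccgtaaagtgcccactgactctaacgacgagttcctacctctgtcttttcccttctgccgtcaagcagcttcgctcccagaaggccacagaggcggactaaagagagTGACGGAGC

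Psmb3: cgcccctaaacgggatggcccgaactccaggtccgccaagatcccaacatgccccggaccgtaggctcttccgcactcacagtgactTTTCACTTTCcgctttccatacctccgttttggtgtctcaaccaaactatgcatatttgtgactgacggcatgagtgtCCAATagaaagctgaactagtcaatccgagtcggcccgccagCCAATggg

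Psmb10: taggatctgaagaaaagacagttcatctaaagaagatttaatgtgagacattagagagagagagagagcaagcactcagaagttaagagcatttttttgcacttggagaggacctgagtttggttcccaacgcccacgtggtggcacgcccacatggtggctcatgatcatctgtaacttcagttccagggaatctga

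Psme2: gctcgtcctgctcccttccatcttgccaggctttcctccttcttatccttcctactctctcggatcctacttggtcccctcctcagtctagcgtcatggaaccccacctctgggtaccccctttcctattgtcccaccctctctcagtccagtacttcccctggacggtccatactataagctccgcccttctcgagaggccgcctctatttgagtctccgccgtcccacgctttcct

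The motifs were searched on both strands of the 250 bases before each RefSeq gene start, which 42 of the 50 members had. TGACNNNGC, the core of the antioxidant response element, which also begins like AP-1 and CRE sites, lay in 10.2% of all 32851 windows. It lay upstream of 4 of the 25 constitutive 26S genes with a window, namely Psmb5, Psmb6, Psmc6 and Psmd12, and of the chaperone gene Psmd9. GAAANNGAAA, the core of the interferon-stimulated response element, lay in 2.98% of all windows, and among the members upstream of Psmb3, Psmd4 and Psmd9. GGAANNGAAA, at which an ETS factor and Irf8 can bind together, lay in 2.30% of all windows and upstream of Psmc2 alone among the members. Neither interferon motif was present upstream of the 5 genes of the immunoproteasome and of PA28 alpha and beta, in these windows and with these letters. The windows of Psmb8 and Psmb9 lie wholly in annotated exons and are not printed. CCAAT, the NF-Y box, lay in 33.8% of all windows and upstream of 10 of the 25 constitutive 26S genes and 15 of the 42 members. In Psmb3 it occurred at 2 positions, marked above. No match of a motif overlapped a match of another, and a match is a description of letters rather than a site.

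In GMPs from 4T1-bearing mice, the constitutive proteasome genes were higher almost throughout. The 5 genes of the immunoproteasome and of PA28 alpha and beta were split, with 3 higher and 2 lower as deposited. A log2 ratio here is that of 4T1-GMP over NTB-GMP after adding 0.1 RPKM to both. It was computed where the mean of both libraries reached 1 RPKM, as for 49 of the 50 members. The exception, Psmb11, had 0.0925 and 0.0314 RPKM, with at least 4 reads in each. Of the 49 genes, 45 were higher in 4T1-GMP, against 54.7% of all 10378 tested genes, with 39 higher without Rn45s in the library sizes, 39 after quantile normalization and 36 under both. Of all tested genes, 39.1% and 50.6% were higher under those scalings. A log2 ratio above 0.32 was reached by 32 of the 49 genes, against 25.2% of all tested genes, and a ratio past 1.5-fold higher by 10, against 9.8%. Below -0.32 there was 1 gene, Psme2b, against 21.7% of all tested genes, and past 1.5-fold lower there was none, against 11.6%. Among the 3468 genes whose mean reached 20 RPKM, which are closer to most proteasome genes in level, 71.9% were higher, 32.7% were above a log2 ratio of 0.32 and 9.63% past 1.5-fold higher, with 7.84% below -0.32 and 3.26% past 1.5-fold lower.

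The median log2 ratio of the 49 genes was 0.40 (interquartile range 0.19 to 0.55), and that of all tested genes 0.05 (interquartile range -0.26 to 0.32). The counting interval lay wholly above 0 for 37 of the 49 genes, against 36.3% of all tested genes, and wholly below 0 for 1, Psme1, against 28.1%. Without Rn45s in the library sizes, 18 of the 49 genes were above 0.32, against 14.3% of all genes tested, and none past 1.5-fold, against 5.85%. After quantile normalization, 16 were above 0.32, against 21.4%, and 1 past 1.5-fold, against 9.59%. Below -0.32, these scalings gave 2 genes, Psme1 and Psme2b, against 32.2%, and 1 gene, Psme1, against 21%. The size of the difference therefore depended on the scaling. The neutrophil genes were higher and the monocyte and dendritic genes lower in the same library, and the part that the makeup of the sorted cells had in these counts was not tested.

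**Figure D1:**
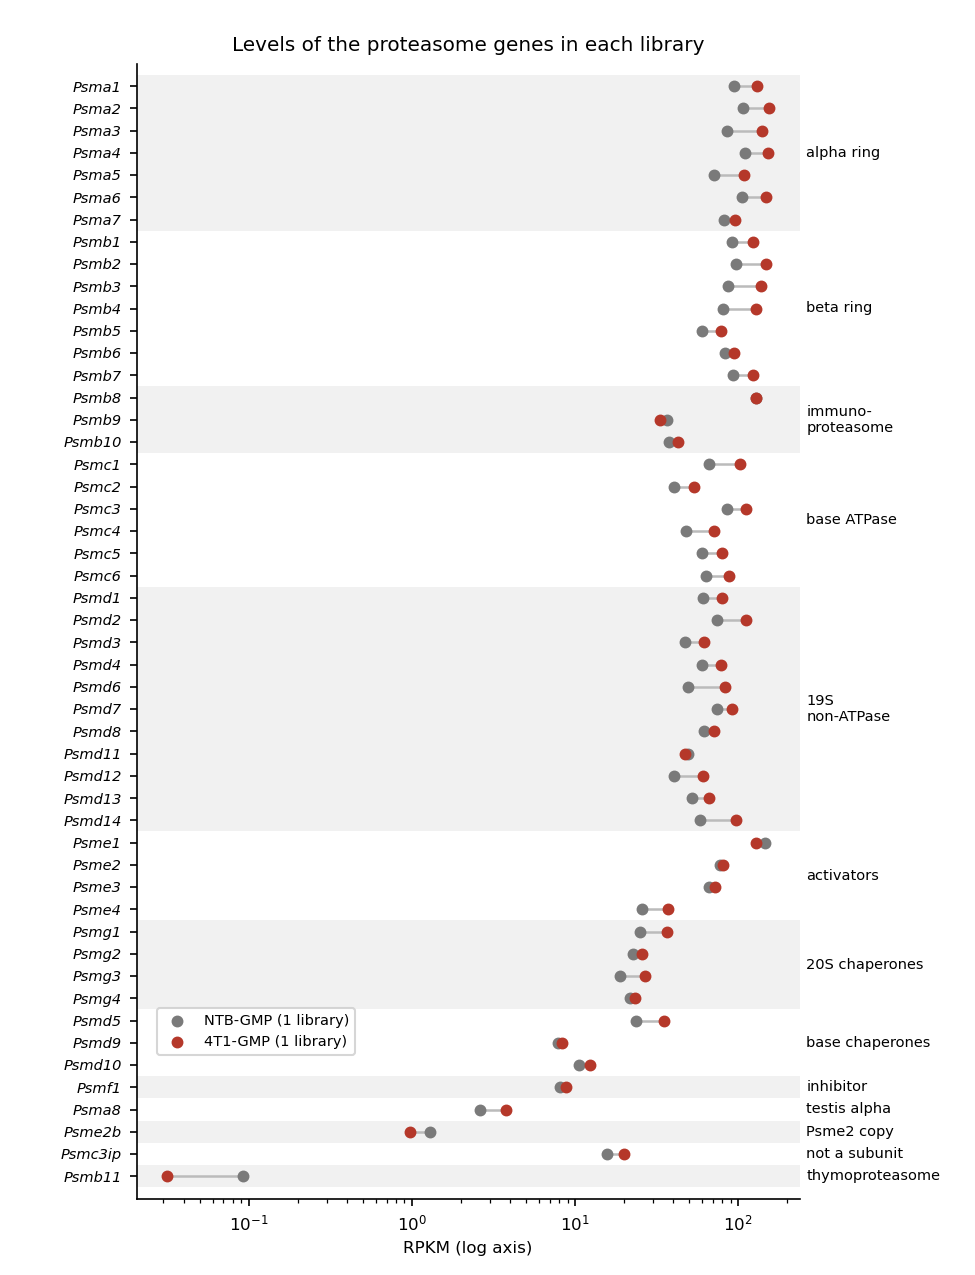
RPKM of the 50 members on a log axis, in NTB-GMP (grey) and 4T1-GMP (red), 1 library each, grouped by role. Nearly all constitutive subunits lie between 40 and 160 RPKM with the red point to the right, while Psmb8 and Psme2 have points close together and Psmb9, Psmd11 and Psme1 have the red point to the left.

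The alpha ring, which closes the core and docks the caps, was higher as a whole in 4T1-GMP. All 7 genes were higher under every scaling, 6 were above 0.32 and 2 past 1.5-fold, and the median log2 ratio was 0.49. Psma3 differed most, with 85.2 and 141 RPKM (log2 ratio 0.72, interval 0.54 to 0.90). Psma5 had 70.6 and 109 RPKM (log2 ratio 0.63). Psma2 had 106 and 155 RPKM (log2 ratio 0.54) and was the highest proteasome gene of 4T1-GMP. These genes lay well above the interquartile range of all tested genes. The levels of Psma1, Psma4 and Psma6 were 94.7, 110 and 105 RPKM in NTB-GMP and 130, 152 and 148 RPKM in 4T1-GMP, with log2 ratios from 0.46 to 0.49. Psma7 stood lowest of the ring, with 81.6 and 96.0 RPKM (log2 ratio 0.24, interval 0.15 to 0.33). Psma8, the testis form of the same position as Psma7, was at 2.61 and 3.80 RPKM, which is far below Psma7 in both libraries.

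The constitutive beta ring was likewise higher. All 7 genes were higher as deposited, 6 were above 0.32 and 3 past 1.5-fold, and the median log2 ratio was 0.43. The structural subunits Psmb2, Psmb3 and Psmb4 had 96.8, 86.5 and 81.3 RPKM in NTB-GMP and 149, 137 and 128 RPKM in 4T1-GMP, with log2 ratios of 0.62, 0.67 and 0.66. Psmb1, also without a proteolytic site of its own, had 91.5 and 124 RPKM (log2 ratio 0.43). By log2 ratio, though not by level, these 4 genes lay above the subunits that carry the active sites. The interval of Psmb7 overlapped those of all 4 genes, and that of Psmb5 overlapped the interval of Psmb1. The recovered reads of Psmb7, 305 and 1190, are lower bounds, so its interval and these overlaps may be wider than the depth requires. Psmb5, the chymotrypsin-like subunit and main target of bortezomib, had 60.3 and 78.1 RPKM (log2 ratio 0.37, interval 0.23 to 0.51). Psmb7, the trypsin-like subunit, had 92.8 and 123 RPKM (log2 ratio 0.40). Psmb6, the caspase-like subunit, had 83.5 and 94.3 RPKM (log2 ratio 0.18, interval 0.07 to 0.29), and its log2 ratio was -0.05 after quantile normalization. Of the constitutive genes with the TGACNNNGC motif, Psmb5 and Psmb6 were below the constitutive median log2 ratio of 0.46, and Psmc6 (0.48) and Psmd12 (0.59) above it.

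Over the 14 constitutive 20S genes, the subunits of which stand in equal numbers in the particle, summed RPKM were 1247 and 1765, a ratio of 1.42. The coefficient of variation across the 14 genes was 15.5% in NTB-GMP and 19% in 4T1-GMP, so their levels were no closer to each other in 4T1-GMP. Levels ran from 60.3 to 110 RPKM in NTB-GMP and from 78.1 to 155 RPKM in 4T1-GMP, with Psmb5 the lowest gene in both.

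**Figure D2:**
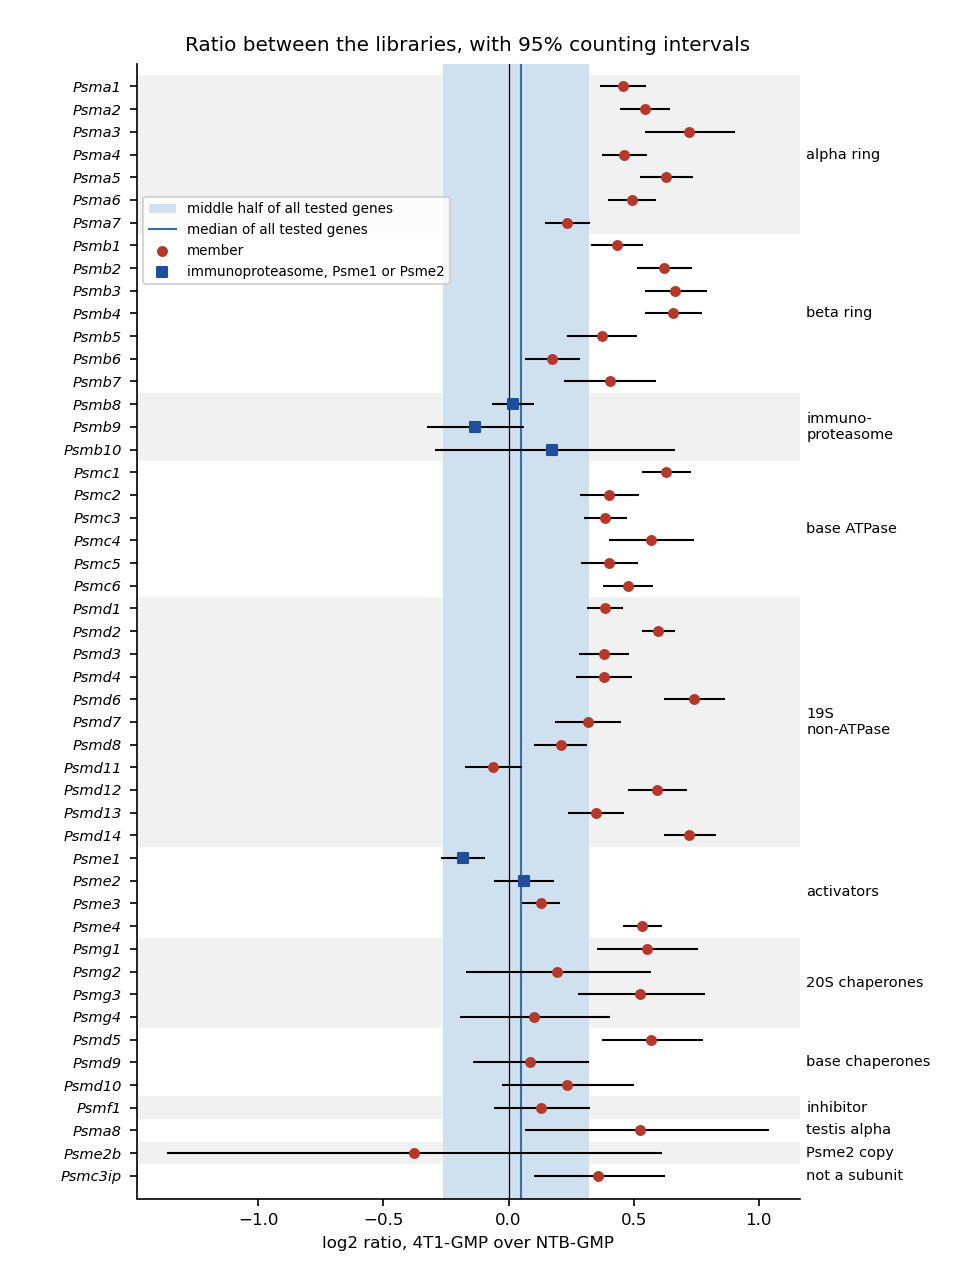
Log2 ratio of 4T1-GMP over NTB-GMP for the 49 tested members, with 95% intervals on the reads, grouped by role; the blue band and line mark the interquartile range and median of all 10378 tested genes. Most constitutive subunits lie to the right of the band, and Psmb8, Psmb9, Psmb10, Psme1 and Psme2 (blue squares) lie inside it. Red circles mark all other tested members, constitutive or not.

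As deposited, Psmb8 and Psmb9 did not differ between the libraries beyond the counting error, but without Rn45s both were lower by more than it. For Psmb10 the counting error could not be judged from the recovered reads. Psmb8, which replaces Psmb5, had 128 and 129 RPKM (log2 ratio 0.02, interval -0.06 to 0.10). Psmb9, which replaces Psmb6, had 36.4 and 33.2 RPKM (log2 ratio -0.13, interval -0.33 to 0.06). Psmb10, which replaces Psmb7, had 37.9 and 42.8 RPKM (log2 ratio 0.17, interval -0.29 to 0.67). That interval is wider than the depth requires, since the recovered 49 and 163 reads are lower bounds that lack a common factor. None of the 3 genes was above 0.32 or below -0.32, and all 3 intervals held 0, that of Psmb10 with reads that are lower bounds. Without Rn45s in the library sizes the log2 ratios were -0.15 for Psmb8 (interval -0.23 to -0.06), -0.30 for Psmb9 (interval -0.49 to -0.10) and 0.01 for Psmb10, and after quantile normalization -0.24, -0.28 and -0.00. Psmb8 was above Psmb5 in both libraries, whereas Psmb9 and Psmb10 were below Psmb6 and Psmb7.

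A ratio of RPKM between genes of the same library does not depend on the library size, so Rn45s does not enter it. Psmb8 over Psmb5 was 2.12 in NTB-GMP and 1.66 in 4T1-GMP, a change of 0.78-fold (interval 0.70 to 0.87). Psmb9 over Psmb6 was 0.436 and 0.352, a change of 0.81-fold (interval 0.69 to 0.94). Psmb10 over Psmb7 was 0.409 and 0.348, a change of 0.85-fold (interval 0.60 to 1.23). The immune form was thus lower relative to its constitutive counterpart in 4T1-GMP at all 3 sites, with an interval below 1 at those of Psmb8 and Psmb9. At that of Psmb10 the interval is wider than the depth requires, because the recovered reads are lower bounds. It therefore does not set this site apart from the others. Summed over the sites, Psmb8, Psmb9 and Psmb10 had 202 and 205 RPKM, and Psmb5, Psmb6 and Psmb7 had 237 and 295 RPKM. The immune share of these sums was 46.1% in NTB-GMP and 41.0% in 4T1-GMP. These are shares of RNA, and assembled particles were not measured here.

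**Figure D3:**
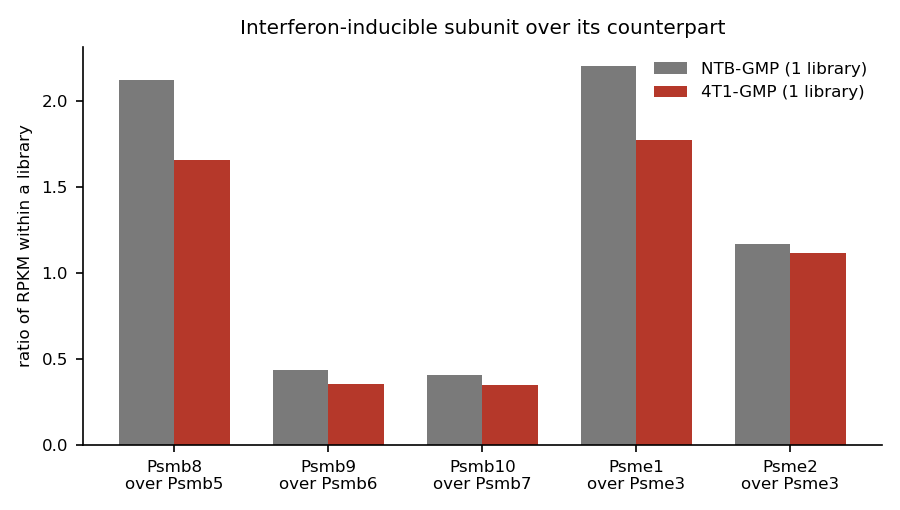
Ratio of RPKM within a library for interferon-inducible subunits over their counterparts, in NTB-GMP (grey) and 4T1-GMP (red), 1 library each. Every red bar is lower than its grey bar, from 2.12 to 1.66 for Psmb8 over Psmb5 and from 2.20 to 1.77 for Psme1 over Psme3, and least so for Psme2 over Psme3.

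Among the activators, Psme1 and Psme2 encode the interferon-inducible PA28 alpha and beta subunits, Psme3 the nuclear PA28 gamma and Psme4 the nuclear PA200. Psme1 was the highest proteasome gene in NTB-GMP, with 145 and 128 RPKM (log2 ratio -0.18, interval -0.27 to -0.09). It was the only member whose interval lay below 0 as deposited, and without Rn45s those of Psmb8, Psmb9 and Psmd11 did too. Psme2 had 77.0 and 80.4 RPKM (log2 ratio 0.06), and -0.10 without Rn45s. PA28 alpha and beta thus did not share the higher level of the core. Psme2b, the intronless copy, was at 1.30 and 0.975 RPKM with at least 14 and 31 reads (log2 ratio -0.38, interval -1.37 to 0.61), and reads shared with Psme2 could be counted under either symbol. Psme3 had 66.0 and 72.2 RPKM (log2 ratio 0.13, interval 0.05 to 0.21), which turned to -0.03 without Rn45s. Psme4 stood apart from the other activators, with 25.6 and 37.1 RPKM (log2 ratio 0.53, interval 0.46 to 0.61). Psme1 over Psme3 changed 0.81-fold between the libraries (interval 0.74 to 0.87) and Psme1 over Psme4 changed 0.61-fold (interval 0.56 to 0.66). Psme2 over Psme3 was 1.17 and 1.11, a change of 0.95-fold (interval 0.87 to 1.05). The subunits of PA28 alpha and beta also differed from each other, with Psme1 over Psme2 at 1.89 and 1.59, a change of 0.84-fold (interval 0.76 to 0.94).

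The ATPase ring of the 19S base, which unfolds the substrate, was higher in all 6 genes under every scaling, all 6 above 0.32 as deposited and 1 past 1.5-fold. Psmc1, whose tail takes part in opening the gate of the core, had 66.6 and 103 RPKM (log2 ratio 0.63, interval 0.53 to 0.73). Psmc4 had 48.2 and 71.4 RPKM (log2 ratio 0.57). The log2 ratios of Psmc2, Psmc3, Psmc5 and Psmc6 ran from 0.39 to 0.48, with levels of 40.7, 85.3, 60.4 and 63.3 RPKM in NTB-GMP and 53.7, 111, 79.8 and 88.2 RPKM in 4T1-GMP. The log2 ratios of the ring thus ran from 0.39 to 0.63, and the coefficient of variation of its levels was 25.5% in NTB-GMP and 24.9% in 4T1-GMP.

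Of the 11 other subunits of the 19S cap among the members, 10 were higher in 4T1-GMP, 8 above 0.32 and 4 past 1.5-fold. Their median log2 ratio was 0.38. Psmd6, a scaffold subunit of the lid, had the largest log2 ratio of all members, with 49.5 and 82.9 RPKM (0.74, interval 0.62 to 0.87). Psmd14, the deubiquitinase that cuts the ubiquitin chain from the substrate, had 58.6 and 96.7 RPKM (log2 ratio 0.72, interval 0.62 to 0.83). Psmd7, which pairs with Psmd14, had 74.0 and 92.2 RPKM (log2 ratio 0.32). The scaffold subunit Psmd2, which docks ubiquitin shuttles, had 74.2 and 112 RPKM (log2 ratio 0.60), and Psmd1, the other large scaffold, 60.8 and 79.4 RPKM (log2 ratio 0.38). Psmd12 of the lid had 40.5 and 61.2 RPKM (log2 ratio 0.59).

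The ubiquitin receptor Psmd4 had 59.9 and 78.1 RPKM (log2 ratio 0.38). The lid subunits Psmd3 and Psmd13 had 47.5 and 51.9 RPKM in NTB-GMP and 61.9 and 66.2 RPKM in 4T1-GMP, with log2 ratios of 0.38 and 0.35. Psmd8 had 61.5 and 71.1 RPKM (log2 ratio 0.21), and -0.03 after quantile normalization. Psmd11 was the only constitutive 26S subunit among the members that was not higher, with 49.4 and 47.4 RPKM (log2 ratio -0.06, interval -0.17 to 0.05). Psmd11 belongs to the same lid as Psmd6 and Psmd12, and its log2 ratio exceeded those of 40.1% of tested genes, against 94.2% for Psmd6. It is known as a subunit that stabilizes the contact between cap and core.

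Over the 31 constitutive 26S subunits among the members, 30 were higher in 4T1-GMP, 26 above 0.32 and 10 past 1.5-fold. The median log2 ratio was 0.46. Summed RPKM were 2239 in NTB-GMP and 3122 in 4T1-GMP, a ratio of 1.39. Without Rn45s, 30 remained higher, with a median of 0.29, and after quantile normalization 28, with a median of 0.21. The 5 genes of the immunoproteasome and of PA28 alpha and beta had a median log2 ratio of 0.02, or -0.15 and -0.24 under those scalings, with 424 and 414 RPKM in sum. Leaving out Rn45s, or setting the median of all genes to 0, shifts all these genes by nearly the same amount. The order of the 2 medians therefore could not change under either. Quantile normalization could have changed that order, and did not.

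**Figure D4:**
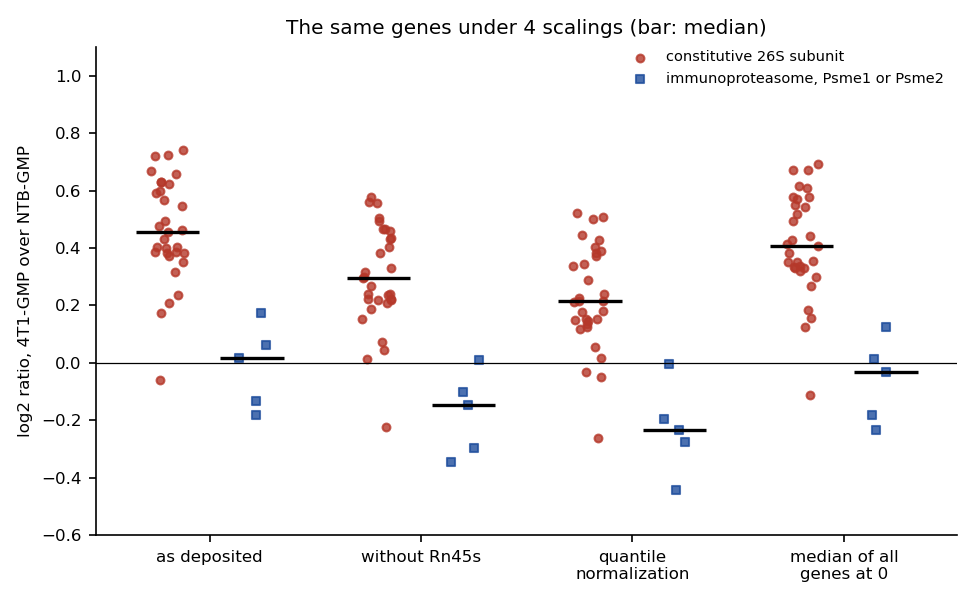
Log2 ratios of 4T1-GMP over NTB-GMP for the 31 constitutive 26S subunits (red circles) and for Psmb8, Psmb9, Psmb10, Psme1 and Psme2 (blue squares) under 4 scalings, with medians as bars and 1 point per gene. The constitutive median lies above 0 in each scaling, from 0.21 to 0.46, and the other median runs from -0.24 to 0.02.

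Assembly factors were mixed. Psmg1 to Psmg4 encode the chaperones that build the 20S core in pairs, Psmg1 with Psmg2 and Psmg3 with Psmg4. Psmg1 had 25.0 and 36.7 RPKM (log2 ratio 0.55) and Psmg3 18.7 and 27.0 RPKM (log2 ratio 0.53), with intervals above 0. Their partners Psmg2 (22.5 and 25.8 RPKM, log2 ratio 0.19) and Psmg4 (21.8 and 23.4 RPKM, log2 ratio 0.10) had intervals that held 0, and Psmg4 was at -0.06 without Rn45s. Of the chaperones of the 19S base, Psmd5 had 23.7 and 35.2 RPKM (log2 ratio 0.57, interval 0.37 to 0.78), while Psmd9 (7.81 and 8.29 RPKM) and Psmd10, also known as gankyrin (10.5 and 12.4 RPKM), had log2 ratios of 0.09 and 0.23, and both intervals held 0. Psmd9 was at -0.08 without Rn45s. Psmf1, which encodes the inhibitor PI31, had 8.09 and 8.86 RPKM (log2 ratio 0.13, and -0.03 without Rn45s). The non-subunit Psmc3ip had 15.7 and 20.1 RPKM (log2 ratio 0.36). Each pair of core chaperones thus held 1 gene above 0.32 and 1 that was not.

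Of 13 listed genes for proteins bound to the proteasome, 12 were found by symbol. Of these 12, 5 were above 0.32, against 25.2% of all tested genes, and the median log2 ratio was 0.16. The cap-bound deubiquitinases were the highest, with Uchl5 at 46.1 and 76.0 RPKM (log2 ratio 0.72, interval 0.62 to 0.83) and Usp14 at 27.4 and 43.5 RPKM (log2 ratio 0.66). Adrm1, the ubiquitin receptor that recruits Uchl5, had 34.5 and 49.5 RPKM (log2 ratio 0.52). Adrm1 and Shfm1 (log2 ratio 0.35) are cap subunits without the symbol stem, and are not counted among the constitutive members. The lowest were Akirin2, which takes part in nuclear import of proteasomes (log2 ratio -0.14), the ubiquitin ligase Ube3a (-0.11) and Zfand2a (-0.00). Pomp, the maturation factor of the 20S core, had 79.9 and 92.3 RPKM (log2 ratio 0.21, and -0.04 after quantile normalization).

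Upstream of the proteasome, 9 genes were for shuttle factors and for the segregase Vcp with its cofactors. Of these, 4 were above 0.32 and 1 below -0.32, against 25.2% and 21.7% of all tested genes, with a median log2 ratio of 0.18. Ufd1l (log2 ratio 0.47), Vcp (183 and 245 RPKM, 0.42) and Rad23b (0.36) were highest, and Ubqln2 (9.51 and 6.76 RPKM, -0.49) and Ubqln4 (-0.03) were among the lowest. Of the 6 genes for ubiquitin and its activating enzymes, none was above 0.32 or below -0.32, against the same shares, and the median was -0.01. The activating enzymes Uba1 (91.7 and 113 RPKM, log2 ratio 0.30) and Uba6 (0.24) were highest. The ubiquitin genes Ubb (331 and 318 RPKM, -0.06) and Rps27a (-0.02) were among the lowest.

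Among 7 regulators of constitutive subunit genes, 1 was above 0.32 and 1 below -0.32, against 25.2% and 21.7% of all tested genes. Their median log2 ratio was 0.14. Nfe2l1 itself had 25.0 and 23.9 RPKM (log2 ratio -0.06, interval -0.16 to 0.03). Nfe2l2 (31.6 and 40.4 RPKM, log2 ratio 0.35), Nfyb (0.18) and the protease Ddi2 that cuts Nfe2l1 (0.18) were highest. Nfya, the NF-Y subunit that contacts the CCAAT box, had 36.7 and 27.0 RPKM (log2 ratio -0.45, interval -0.54 to -0.35), and Ngly1, which removes sugars from Nfe2l1, was at -0.28. Nfe2l1 is controlled largely at the protein level, which RNA does not show.

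The genes that act with the immunoproteasome in presentation by MHC class I held 3 of 11 above 0.32 and 3 below -0.32, near the 25.2% and 21.7% of all tested genes, with a median log2 ratio of -0.05. Tapbpl, a peptide editor, had 9.95 and 16.5 RPKM (log2 ratio 0.72), and the ER chaperones Calr (0.49) and Pdia3 (0.47) followed. H2-K1, a class I heavy chain, had 127 and 38.3 RPKM (log2 ratio -1.73, interval -1.82 to -1.64). The peptide transporter genes Tap2 (54.7 and 34.3 RPKM, log2 ratio -0.67) and Tap1 (28.3 and 21.3 RPKM, log2 ratio -0.41, interval -0.53 to -0.29) were also lower. Genes of the H-2 complex, H2-K1 above all but also Psmb8, Psmb9, Tap1 and Tap2, differ in sequence between haplotypes, and what the alignment to mm10 did with reads of the d haplotype was not tested. Psmb9 and Tap1 start next to each other in opposite directions within the H-2 complex of chromosome 17 (Psmb9 from 34181987 to 34187764 on the minus strand in GENCODE M21), yet Psmb9 over Tap1 was 1.29 in NTB-GMP and 1.56 in 4T1-GMP, a change of 1.21-fold (interval 1.03 to 1.42). Psmb8 lies in the same complex, from 34197721 to 34201454 on the plus strand.

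The 7 interferon and class I transcription factors had the lowest median of these lists, -0.71. Of them, 4 were past 1.5-fold lower, against 11.6% of all tested genes, and none was above 0.32, against 25.2%. Irf8, which directs monocyte and dendritic fates and can induce immunoproteasome genes, had 32.0 and 4.45 RPKM (log2 ratio -2.82, interval -3.00 to -2.68). Irf2 (11.5 and 5.36 RPKM, log2 ratio -1.08) and Nlrc5, the class I transactivator (5.23 and 2.80 RPKM, log2 ratio -0.88), were the next lowest. Irf1, a known inducer of Psmb9, had 16.5 and 13.8 RPKM (log2 ratio -0.25, interval -0.40 to -0.11). Stat2 (-0.17) and Irf1 were among the highest. The monocyte and dendritic genes, several of which depend on Irf8, were lower in the same library by a median log2 ratio of -2.74, and the part of these genes or of the factors in the levels of the immunoproteasome and PA28 genes was not tested.

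**Figure D5:**
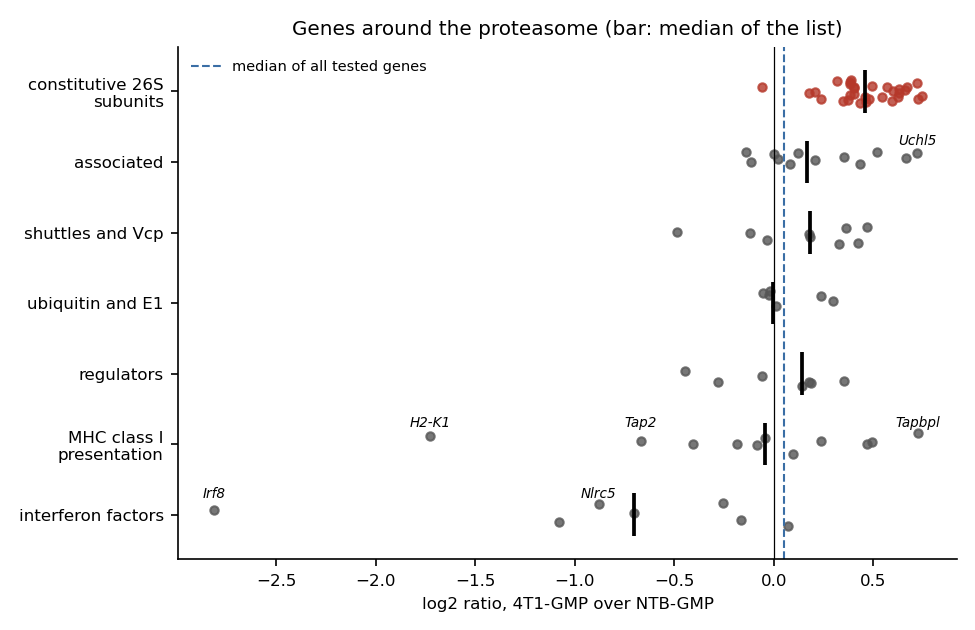
Log2 ratio of 4T1-GMP over NTB-GMP for the constitutive 26S subunits and for the lists around them, 1 point per tested gene, with the median of each list as a bar and that of all tested genes as a dashed line. The constitutive subunits have the highest median, 0.46, and the interferon factors the lowest, -0.71, with Irf8 at -2.82.

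Members lay on 16 chromosomes, with 10 of them on chromosome 11 and 6 on chromosome 14 in GENCODE M21, so the shared direction was not that of a single locus. On chromosome 14, Psmb5 (54614119 to 54618022, minus strand) had a log2 ratio of 0.37. Farther along the same chromosome, the neighbours Psme1 (55578123 to 55581529, plus strand) and Psme2 (55587441 to 55591113, minus strand) were at -0.18 and 0.06.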

How the data were processed

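Total RNA of flow-purified GMPs was sequenced in 2 libraries, NTB-GMP and 4T1-GMP. Per the labels, the processing tools included CASAVA 1.8.2, cutadapt 1.2.1, TopHat2 2.0.13, Picard 1.97, HTSeq 0.6.1 and edgeR 3.12.1, with the mm10 build; strand and gene lengths are not given in the sources used here. The authors deposited 1 RPKM value per library for each of 24421 symbols, that is, reads scaled by gene length and sequencing depth. RPKM depend on what the library size counts, so a reads-rich RNA such as Rn45s moves every other value.

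Log2 ratios were taken as log2(RPKM + 0.1) for the 10378 genes whose mean reached 1 RPKM, which understates the difference of low genes. Whole reads were recovered from the digits of the RPKM. On simulated 4T1-GMP and NTB-GMP values, ratios of reads came back for 100% of 10377 genes, and intervals held the true ratio for 95.9%. Recovered counts are lower bounds where both share a factor. Intervals of single genes are 95% Clopper-Pearson intervals from recovered reads; for a pair of genes, exact intervals of the odds ratio were used. They cover counting error only. With 1 library per group, no test between conditions was possible.

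Members and lists were chosen with earlier results of these data known. All members were accounted for; from each list, the 3 highest and 3 lowest log2 ratios were named, with Nfe2l1, Irf1, Irf8, Tap1 and Pomp. A few genes that this rule names are not reported here. Alternatives were pseudocounts of 1 and 0.01, no minimum or a minimum of 5, quantile normalization, library sizes without Rn45s, and the median of all genes set to 0. Promoter windows are RefSeq sequences of GRCm38.p6, and gene positions are from GENCODE M21. Computations used Python 3.11.15, numpy 2.4.6, pandas 2.3.3, scipy 1.17.1 and matplotlib 3.10.9.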

Additional observations from a re-analysis of the deposited data

How the results depend on the processing

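No paired analysis was possible because a single library stood for each group, and no replicate could be left out. Of 704 values of 101 single genes under the alternatives, 559 stayed within the counting interval of the value given above, 138 lay outside it without a change of sign and 7 changed sign. Other minimum levels cannot move a single gene's ratio, so their values count as within by construction. Without Rn45s, 68 of the 101 genes lay outside and 2 changed sign, and after quantile normalization 61 and 5. Quantile normalization turned the log2 ratios of Psmb6 (-0.049), Psmd8 (-0.032), Psme3 (-0.12), Pomp (-0.044) and AI314180 (-0.073), and library sizes without Rn45s turned Psme3 (-0.034) and AI314180 (-0.041). The count of proteasome genes past 1.5-fold higher, 10 as deposited, was 1 after quantile normalization, 0 without Rn45s and 5 with the median of all genes set to 0. The count with a log2 ratio above 0.32, 32 as deposited, was 16 after quantile normalization and 18 without Rn45s. The median log2 ratio of the 49 tested genes, 0.40 as deposited, was 0.18 and 0.24 under those 2 scalings. The count below -0.32, 1 as deposited, was 0 with a pseudocount of 1, with a minimum RPKM of 5 and without Psmc3ip, Psma8 and Psme2b, an alternative chosen after seeing the data, and 2 with no minimum and without Rn45s. Leaving Rn45s out lowers log2 ratios by construction, by a shift of about -0.16 before the pseudocount; for the other settings the cause was not tested. Few recovered reads in NTB-GMP limit Psmg2, Psmg4 and Psme2b, whose intervals span 0, and for Psmb10 the limit is the recovery of its reads. Recovered reads are lower bounds for the other genes as well, so intervals such as that of Psmg2 may also be wider than the depth requires.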
